A study of Arabidopsis thaliana and Oryza sativa and Cucumis sativus with 30 samples.

Results

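Root hairs of Arabidopsis were isolated for sequencing in 2 ways, and the 2 profiles are set side by side here. Sieved hairs are 3 libraries of variety Columbia, made from hairs broken off frozen root tissue by stirring and passed through a sieve. Sorted COBL9 cells are 3 libraries of the Columbia line COBL9::GFP, made from root tips that were digested to single cells and sorted for GFP driven by the promoter of COBL9. A further pair of sorted groups serves as a separate readout, namely epidermal cells of the mutant rhd6 with WER::GFP and of the wild type with WER::GFP, 3 libraries each. All 4 groups came from seedlings taken 4 to 5 days after plating under constant light at 22 °C, and the series design calls the 3 libraries of a group biological replicates. The compared libraries are 6 of the 30 in the series. The sieved table lists 14919 genes, all of them also among the 33550 genes of the sorted table, and its lowest mean is 3.00 FPKM. FPKM is a read count per transcript length and library size, and the depth of these 6 libraries is unknown.

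A root hair is the outgrowth of a single epidermal cell that extends only at its tip. Basic helix-loop-helix (bHLH) factors led by RHD6 start the programme. ROP GTPases, actin and the oxidase RHD2 steer growth at the tip. Extensins, proline-rich proteins, expansins, xyloglucan-modifying enzymes and class III peroxidases build the hair wall. COBL9 encodes a GPI-anchored wall protein of hair cells, and its promoter is a common reporter for them.

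The sieved and sorted tables were made with different library kits (SMART-Seq v4 and TruSeq) and normalized separately, so no test was run between them. Each gene was ranked within each library among the 14919 shared genes, with ties at their mean rank. Its percentile is its rank from the lowest as a percentage of those genes. Sieving took root tissue and sorting took root tips, so kit, tissue, cell wall digestion and cell type cannot be told apart in this comparison, and fewer cells of a type cannot be told apart from less RNA per cell. In the following, values of sieved hairs are in the order of libraries 1, 2 and 3, and values of sorted cells in that of their columns, called 1, 2 and 3 here only as names.

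The 3 sieved libraries were less alike than the 3 sorted ones. Across the 14919 genes, Spearman's rho was 0.441 between sieved libraries 1 and 2, 0.625 between 1 and 3, and 0.692 between 2 and 3. Sorted libraries had 0.922 to 0.982 with each other. Sieved library 1 had a higher rho with each sorted library (0.617 to 0.660) than with sieved library 2, whose rho with sorted libraries was 0.391 to 0.413. The hair wall genes described below (27, of which 26 are in the sieved table) summed to 29904, 5661 and 8726 FPKM in sieved libraries, against 19029, 7647 and 14994 FPKM in sorted libraries. Ribosomal protein genes (343, of which 301 are in the sieved table) ran the other way in sieved hairs, at 7626, 40416 and 32657 FPKM, against 9561, 9513 and 14537 FPKM in sorted cells. Thus sieved library 1 was the highest of its group for hair wall genes and the lowest for ribosomal protein genes. Listed at 0 were 1683, 1206 and 77 genes in the sieved libraries, against 456, 443 and 271 genes in the sorted libraries. All genes at 0 in a library share 1 percentile, which was 5.64 in sieved library 1 and 1.53 in sorted library 1, so very low genes can rank higher in sieved hairs without being read more.

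**Figure D1:**
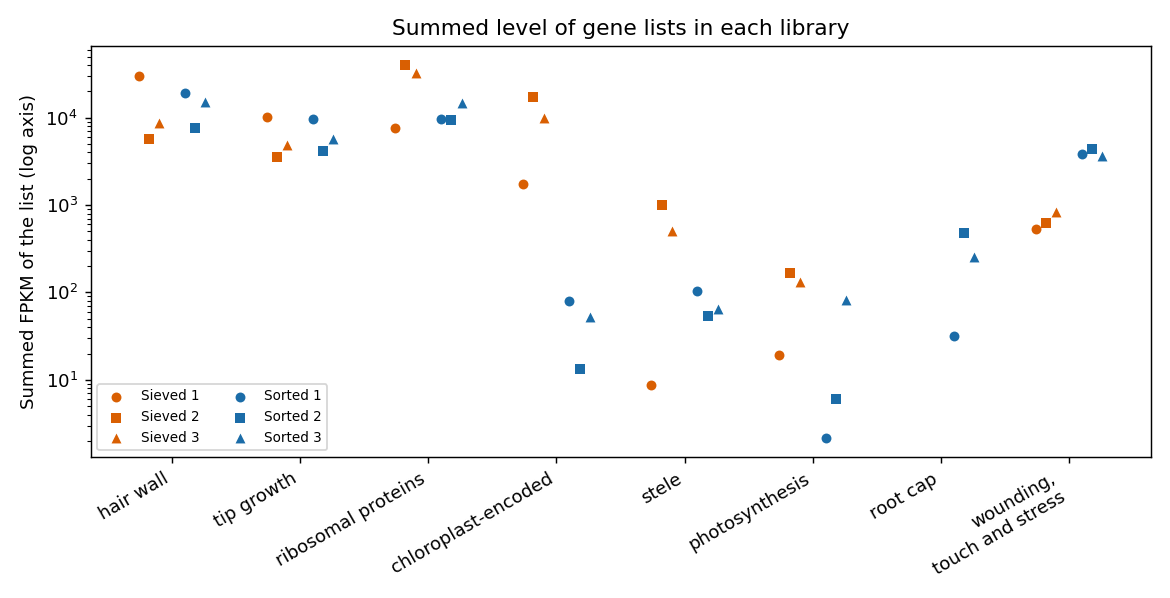
Summed FPKM (log axis) of 8 gene lists in each library, over the members that each table lists, with sieved hairs in orange at left and sorted cells in blue at right of each list, and 1 symbol per library. Sieved library 1 is at 29904 FPKM for hair wall genes and 8.70 FPKM for stele genes, and root cap genes have no sieved points since none of the 4 is in the sieved table.

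COBL9 itself (AT5G49270) did not rank high in every sieved library. It was at 178, 8.25 and 43.1 FPKM in sieved hairs, against 194, 63.6 and 97.0 FPKM in sorted cells, with means of 76.5 ± 89.8 and 118 ± 67.6 FPKM (SD, n = 3 each). Its percentiles were 94.5, 20.4 and 74.0 in sieved hairs and 95.3, 86.7 and 90.9 in sorted cells, and the groups overlapped. Other hair genes were high in both preparations, as follows.

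A gene was called high in an isolation at percentile 90 or more in each of its 3 libraries, and low below percentile 50 in each. Of 14919 genes, 491 were high in both isolations, 24 were high in sieved hairs and low in sorted cells, and 31 were high in sorted cells and low in sieved hairs. The 491 shared genes were 66.1% of the 743 high in all sieved libraries and 44.2% of the 1111 high in all sorted libraries. In sieved library 1 the gene at percentile 90 had 103.8 FPKM and the one just under it 103.7 FPKM, and percentile 50 lay between 14.07 and 14.06 FPKM. Without sieved library 1 the 24 became 114 and the 31 became 53, and without sorted library 1 the 31 became 51.

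**Figure D2:**
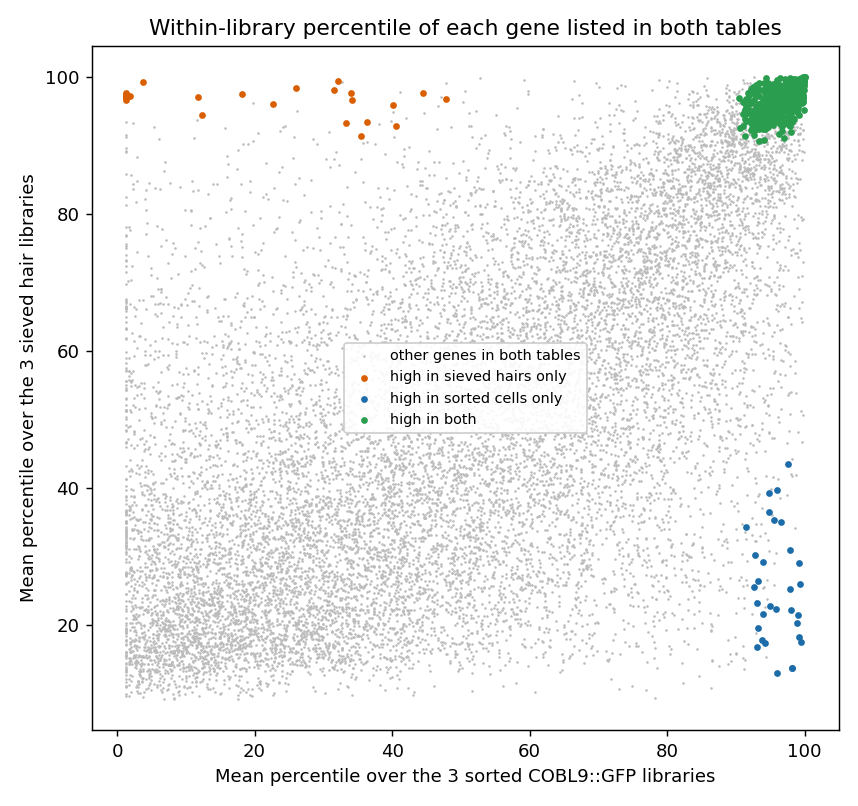
Mean percentile over 3 sieved libraries (vertical axis) against mean percentile over 3 sorted libraries (horizontal axis) for the 14919 genes in both tables. The 491 genes high in both fill the upper right corner, the 24 high in sieved hairs only lie along the top and the 31 high in sorted cells only along the right side.

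The genes with the highest ranks in both isolations included a metallothionein, proteins of the ER body and cytoskeletal and housekeeping genes. MT1A, a metallothionein, had 40268, 39058 and 31940 FPKM in sieved hairs, against 10331, 4889 and 6576 FPKM in sorted cells. AT1G07590, next to it in locus number, is listed with the same 6 values, so this level cannot be given to either gene alone. PYK10, the main β-glucosidase of the ER bodies of Brassicaceae roots, had 6806, 8909 and 9695 FPKM in sieved hairs, against 2854, 4723 and 4160 FPKM in sorted cells. Its binding partner PBP1 had 2744, 2718 and 3156 FPKM in sieved hairs, against 1748, 3115 and 2714 FPKM in sorted cells. JAL34, a lectin of the same system, had 1486, 1191 and 1338 FPKM in sieved hairs, against 1903, 1930 and 1996 FPKM in sorted cells. PYK10 was thus higher in all sieved libraries than in any sorted one, JAL34 lower, and PBP1 overlapped.

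UBQ3, a polyubiquitin, overlapped between the isolations, with 2323, 2106 and 2597 FPKM in sieved hairs, against 2752, 2487 and 2526 FPKM in sorted cells. ACT2, a vegetative actin that tip growth needs, had 4524, 1125 and 1645 FPKM in sieved hairs, against 2229, 895 and 1406 FPKM in sorted cells. ANNAT1, an annexin, had 1843, 1120 and 1503 FPKM in sieved hairs, against 1618, 1298 and 1513 FPKM in sorted cells. AAC1, a mitochondrial ADP/ATP carrier, had a mean of 1510 FPKM in sieved hairs and 2063 FPKM in sorted cells, and AGP24, an arabinogalactan protein, 1954 and 2301 FPKM. The dehydrin family gene AT1G54410 averaged 3859 FPKM in sieved hairs and 1476 FPKM in sorted cells. GSTU19, a glutathione transferase, averaged 1161 FPKM in sieved hairs and 3071 FPKM in sorted cells.

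Hair genes were often high in both isolations. Over 4 lists of hair genes (bHLH factors, hair wall, other RHS genes, tip growth) 78 members were in both tables. A gene was called higher or lower where the percentiles of the 3 sieved and 3 sorted libraries did not overlap and their means differed by 20 points or more. By this rule 1 hair gene was higher in sieved hairs (1.28%), beside 11.9% of all 14919 genes, and 6 were lower (7.69%), beside 12.8% of all genes. A gene over percentile 80 in sorted cells cannot gain 20 points, which held for 60 of the 78 hair genes (76.9%) and for 19.3% of all genes, so the share of higher hair genes cannot be read against that of all genes. Of all genes called, 241 of the 1773 higher and 774 of the 1912 lower overlapped in FPKM. High in both were 19 of the 78 (24.4%), beside 3.29% of all genes. In 65 of the 78, sieved library 1 had the highest FPKM of the 3 sieved libraries, and it had the highest for 27.3% of all genes. In 74 of the 78, sorted library 2 had the lowest FPKM of the 3 sorted libraries, and it had the lowest for 39.3% of all genes.

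Of the 9 bHLH factors, 7 were in both tables and none was called in either direction, with a median difference of -13.72 percentile points against 0.05 for all genes. Without sieved library 2 there were 2 lower, without sorted library 1 there were 2 higher, and without sieved library 1 or 3 or sorted library 2 there was 1 call. RHD6 (AT1G66470) had 18.4, 39.4 and 5.30 FPKM in sieved hairs, against 125, 18.9 and 39.1 FPKM in sorted cells. RSL4, which drives hair elongation, had 49.9, 92.7 and 27.2 FPKM in sieved hairs, against 208, 56.7 and 96.8 FPKM in sorted cells. RSL2, its close relative, had 446, 120.4 and 56.5 FPKM in sieved hairs, against 80.7, 9.34 and 18.3 FPKM in sorted cells. RHD6 and RSL4 thus overlapped between the isolations while averaging 32.7 and 15.2 points lower in rank in sieved hairs, and RSL2 overlapped while averaging 23.2 points higher. LRL3 was the highest factor in both preparations, at 678, 158 and 234 FPKM in sieved hairs, against 297, 72.2 and 121 FPKM in sorted cells. The bHLH gene AT5G43175 had 19.3, 0 and 0.75 FPKM in sieved hairs, against 5.99, 5.79 and 13.6 FPKM in sorted cells. AT2G14760, another bHLH gene, had 11.9, 13.9 and 10.2 FPKM in sieved hairs, against 8.39, 0.46 and 0.74 FPKM in sorted cells. LRL1 averaged 41.5 ± 6.88 FPKM in sieved hairs and 74.8 ± 45.4 FPKM in sorted cells. LRL2 was not in the sieved table at 64.5, 30.1 and 64.5 FPKM in sorted cells, and RSL1 was not in it at a mean of 4.58 FPKM in sorted cells.

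Hair wall genes were the group most often high in both, with 13 of 26, and 2 of the 26 were lower in sieved hairs. PRP3, a proline-rich wall protein, had 2994, 557 and 795 FPKM in sieved hairs, against 1848, 590.2 and 1368 FPKM in sorted cells. The arabinogalactan protein AGP3 had 2858, 421 and 896 FPKM in sieved hairs, against 1548, 613 and 1322 FPKM in sorted cells. EXPA18, a hair expansin, had 1372, 278 and 363 FPKM in sieved hairs, against 440, 128 and 246 FPKM in sorted cells. All 3 were at percentile 93.6 or above in every library, with library 1 highest in sieved hairs and library 2 lowest in sorted cells. The peroxidase gene RHS19 had 2697, 532 and 675 FPKM in sieved hairs, against 499, 253 and 598 FPKM in sorted cells. The extensin gene EXT13 had 2444, 379 and 701 FPKM in sieved hairs, against 1181, 471 and 1026 FPKM in sorted cells. LRX1, an extensin with leucine-rich repeats, had 744, 152 and 213 FPKM in sieved hairs, against 529, 146 and 301 FPKM in sorted cells. The other members high in both were HRGP1, EXT6, EXT10, AT5G06630, XTH14 and the peroxidase genes AT5G17820 and AT1G30870. Extensin genes have repetitive, related sequences, so how their reads were split is uncertain.

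The 2 wall genes that were lower (7.69%, below the 12.8% of all genes) encode cellulose synthase-like proteins, and without sieved library 2 none was lower, without sieved library 3 only 1. CSLD3, which hair outgrowth needs, had 63.5, 9.44 and 41.1 FPKM in sieved hairs, against 175, 120.4 and 145 FPKM in sorted cells. CSLD2 had 89.6, 29.4 and 33.3 FPKM in sieved hairs, against 199, 87.0 and 127 FPKM in sorted cells. CSLD3 did not overlap between the isolations in FPKM, while CSLD2 overlapped in FPKM and not in percentile. XTH13 and XTH26, both xyloglucan-modifying enzymes, were uneven within sieved hairs, at 197, 0 and 32.9 FPKM and at 472, 12.9 and 40.0 FPKM, against 74.1, 50.2 and 93.4 FPKM and 24.1, 39.4 and 125 FPKM in sorted cells. The expansin EXPA17 was not in the sieved table, at 507, 236 and 233 FPKM in sorted cells, while EXPA7 had 344, 118 and 96.7 FPKM in sieved hairs and 719, 173 and 324 FPKM in sorted cells.

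Among the 13 other RHS genes, a set named for hair-specific expression, none was called, and RHS13 was high in both. RHS13 had 1242, 391 and 342 FPKM in sieved hairs, against 618, 383 and 702 FPKM in sorted cells. RHS8 had the widest gap, at 18.8, 5.47 and 2.49 FPKM in sieved hairs and 43.4, 10.13 and 17.0 FPKM in sorted cells. RHS4 had 29.9, 10.8 and 9.14 FPKM in sieved hairs, against 51.0, 12.1 and 22.9 FPKM in sorted cells. RHS2 averaged 15.4 points lower in rank in sieved hairs, and all 3 overlapped between the isolations. RHS15 leaned the other way, at 502, 84.6 and 94.5 FPKM in sieved hairs and 36.6, 23.7 and 73.1 FPKM in sorted cells, and its percentiles overlapped.

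Tip growth genes had a median difference of -5.77 points, with 1 of 32 higher, 4 lower (12.5%, beside 12.8% of all genes) and 5 high in both. The values of the called members follow as a description. RHD2, the NADPH oxidase of the growing tip, had 33.4, 12.3 and 16.8 FPKM in sieved hairs, against 206, 78.5 and 115 FPKM in sorted cells. ROPGEF3, which positions ROP GTPases at the site of outgrowth, had 15.6, 18.4 and 8.08 FPKM in sieved hairs, against 92.6, 28.3 and 44.2 FPKM in sorted cells. EXO70C1, a subunit of the exocyst, had 29.5, 0.01 and 10.9 FPKM in sieved hairs, against 69.8, 25.7 and 36.5 FPKM in sorted cells. These 3 and OXI1, a kinase activated by oxidative stress with 22.9, 12.7 and 62.1 FPKM in sieved hairs and 158, 195 and 150.4 FPKM in sorted cells, were the lower ones. ROP6 was the higher one, at 6.92, 36.8 and 23.96 FPKM in sieved hairs and 0.47, 1.55 and 1.53 FPKM in sorted cells. ROP2, the GTPase best known from hairs, ranked alike, at 171, 149 and 96.4 FPKM in sieved hairs and 195, 74.6 and 105 FPKM in sorted cells. Members high in both were ACT2, ACT8, the proton pump AHA2, the actin depolymerizing factor ADF8 and SCN1, a regulator of ROP GTPases. Without sorted library 2 the lower tip growth genes became 7, without sieved library 1 they became 11, the lower hair wall genes 5 and the lower other RHS genes 3.

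**Figure D3:**
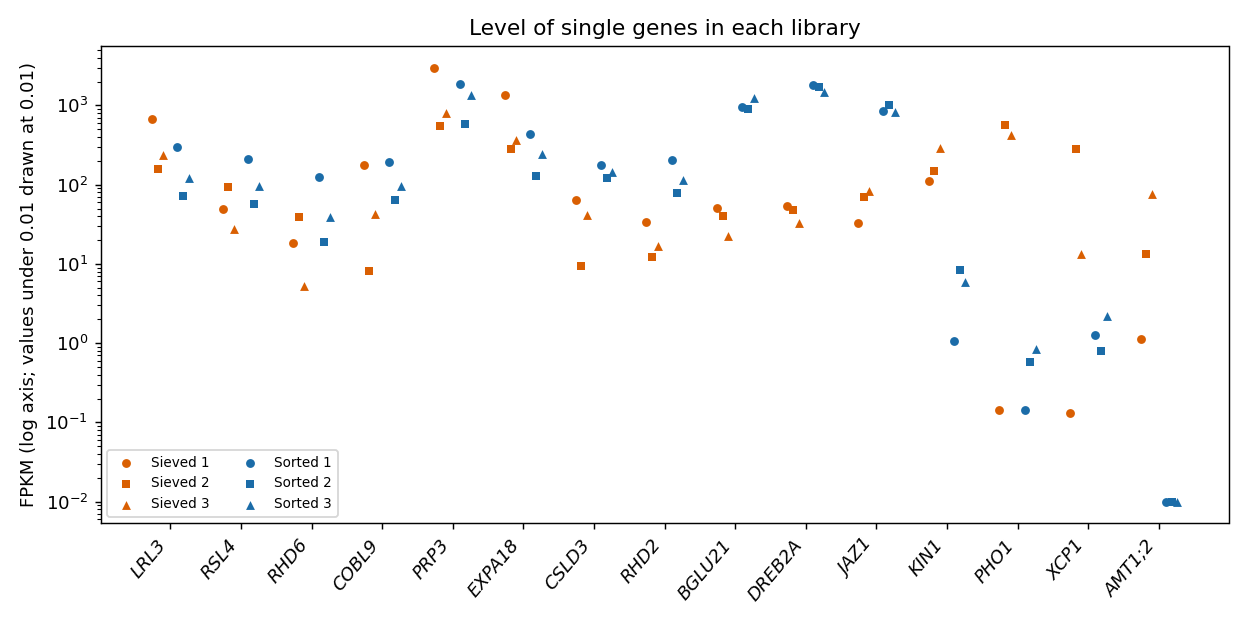
FPKM (log axis, values under 0.01 drawn at 0.01) of 15 genes in each library, with sieved hairs in orange at left and sorted cells in blue at right of each gene. LRL3, PRP3 and EXPA18 overlap between the isolations, DREB2A, JAZ1 and BGLU21 are lower in all sieved libraries, and PHO1 and XCP1 are above all sorted libraries in sieved libraries 2 and 3 and not in sieved library 1.

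The genes high in sieved hairs only ranged in sorted cells from 0 to about the middle of the ranks. The 24 lay between 107 and 3215 FPKM in the sieved libraries and at no more than 10.8 FPKM in any sorted library, and 6 were listed at 0 in all 3 sorted libraries. Nuclear genes made up 19 of them and chloroplast-encoded genes 5. MLP328, of the major latex protein family, had 760.3, 655 and 985 FPKM in sieved hairs, against 0, 0.085 and 0.31 FPKM in sorted cells. AT3G51642, which encodes an uncharacterized protein, had 124, 998 and 3215 FPKM in sieved hairs and is listed at 0 in sorted cells. AT1G48750, of the lipid-transfer protein family, had 136, 1089 and 1548 FPKM in sieved hairs and is at or next to 0 in sorted cells. CYP71B2, a cytochrome P450, had 460.3, 252 and 269 FPKM in sieved hairs, against 0.36, 0.54 and 1.49 FPKM in sorted cells. All sieved libraries were far above all sorted ones for these genes, which the rule that chose them requires.

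Other members were as follows. TPX2, a thioredoxin-dependent peroxidase (AT1G65970), had 146, 1101 and 1368 FPKM in sieved hairs, against 0.62, 2.30 and 1.96 FPKM in sorted cells. GSTU9, a glutathione transferase, had 225, 161 and 699.9 FPKM in sieved hairs, against 0.35, 3.45 and 4.09 FPKM in sorted cells. AT1G26250, an extensin-like gene, had 119, 286 and 208 FPKM in sieved hairs, against 0.90, 0.59 and 0.78 FPKM in sorted cells. AT1G52200, of the PLAC8 family, had 413, 576 and 409 FPKM in sieved hairs, against 2.69, 2.64 and 3.08 FPKM in sorted cells. AT5G02090, of unknown function, and AT5G43150, described in the reference as an elongation factor, averaged 426 and 409 FPKM in sieved hairs and 4.02 and 4.79 FPKM in sorted cells. KIN1, a gene of the cold response, had 110.1, 148 and 290.4 FPKM in sieved hairs, against 1.05, 8.45 and 5.85 FPKM in sorted cells.

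Chloroplast-encoded genes in the sieved table had far higher levels there than in sorted cells. Of 133 such genes 62 were in the sieved table and 71 were not, and the 62 are those that reached its minimum mean, so their calls (48 higher, 0 lower) are a description only. At 0 in all sorted libraries were 28 of the 62. The 62 summed to 1739, 17168 and 9847 FPKM in sieved hairs, against 24.5, 13.0 and 4.83 FPKM in sorted cells, where all 133 summed to 80.5, 13.2 and 52.8 FPKM. ATCG00390 had 39.3, 6728 and 2113 FPKM in sieved hairs and ATCG00290 0, 1544 and 222 FPKM, and both are listed at 0 in sorted cells. Of 145 mitochondria-encoded genes 13 were in the sieved table and 132 were not, so their calls too are a description only. Of the 13, 3 were higher (23.1%, beside 11.9% of all genes) and none lower. ATMG00030 had 1919, 1890 and 1934 FPKM in sieved hairs, against 344, 174 and 91.5 FPKM in sorted cells. ATMG01390 went the other way, at 72.9, 65.8 and 58.4 FPKM in sieved hairs, against 185, 132 and 84.3 FPKM in sorted cells. Nuclear photosynthesis genes, markers of green tissue, summed to 19.3, 165 and 133 FPKM in sieved hairs, against 1.97, 5.44 and 56.5 FPKM in sorted cells, over the 4 of 10 members in the sieved table. All 10 summed to 2.14, 6.06 and 81.8 FPKM in sorted cells. RBCS1A, the small subunit of Rubisco, had 8.99, 76.2 and 83.7 FPKM in sieved hairs, against 0, 1.097 and 23.6 FPKM in sorted cells. Of the 4, 1 was higher (LHCB4.1), and leaving out 1 library gave from 0 (without sieved library 2 or sorted library 1 or 2) through 2 (without sieved library 1) to 3 (without sorted library 3). The part of green tissue in the chloroplast values was not tested.

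Markers of the stele, the vascular core of the root, had a raised sum in 2 of the 3 sieved libraries, carried by PHO1 and XCP1. Over 11 markers, 7 of them in the sieved table, the summed level was 8.70, 1000.4 and 511 FPKM in sieved hairs, against 105, 53.6 and 64.8 FPKM in sorted cells. PHO1, which loads phosphate into the xylem, had 0.14, 566 and 423 FPKM in sieved hairs, against 0.15, 0.57 and 0.84 FPKM in sorted cells. In library 3 the sum was mostly PHO1, and the list's median percentile was 16.4, 56.3 and 44.9 in sieved hairs, against 11.9, 11.04 and 10.5 in sorted cells. XCP1, a xylem cysteine peptidase, had 0.13, 279 and 13.2 FPKM in sieved hairs, against 1.26, 0.81 and 2.22 FPKM in sorted cells. APL, a phloem identity factor, had 0, 27.6 and 17.2 FPKM in sieved hairs and at most 0.15 FPKM in sorted cells, while SUC2, a phloem sucrose carrier, and the xylem cellulose synthases CESA7 and CESA8 were not in the sieved table. By percentile 4 of the 7 (PHO1, APL, SHR and PHB) were higher (57.1%, beside 11.9% of all genes). The cytokinin receptor gene AHK4 was lower (14.3% of the 7, beside 12.8% of all genes). It had 4.02, 68.6 and 26.9 FPKM in sieved hairs and 92.1, 47.8 and 54.2 FPKM in sorted cells. AHK4 overlapped in FPKM but not in percentile, and without sieved library 1 it was not called. The higher genes became 5 without sieved library 1, and 3 without sieved library 2 or 3. In sieved library 1 PHO1, APL, SHR and PHB were at 0.14 FPKM or less, where percentiles separate genes by very small levels, and all 4 overlapped with sorted cells in FPKM. The call of APL rests on the rank that the zeros of sieved library 1 share (percentile 5.64), against at most 3.67 in sorted cells. The list also holds CESA4 at 0.33 FPKM in sieved library 3. The part of stele cells in other results was not tested.

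Few markers of the other inner and dividing tissues were in the sieved table, and none was called with all libraries. Without sieved library 2, 1 marker of cortex and endodermis and 1 of cell division were lower. Without sorted library 1, 1 marker of cell division was lower. For cortex and endodermis 3 of 10 markers were in the sieved table. These 3 summed to 2.53, 64.8 and 14.5 FPKM in sieved hairs, against 13.7, 2.75 and 9.87 FPKM in sorted cells, where all 10 summed to 29.0, 6.45 and 20.6 FPKM. CASP1 reached 33.9 FPKM in sieved library 2. For cell division 3 of 8 markers were in the sieved table. These 3 summed to 0, 21.2 and 53.1 FPKM in sieved hairs, against 4.03, 18.9 and 16.3 FPKM in sorted cells, where all 8 summed to 9.71, 44.5 and 35.0 FPKM. CDKB2;1 reached 41.3 FPKM in sieved library 3. Among the 12 genes that pattern hair and non-hair files, CPC, the mobile factor that hair cells receive, was lower at 13.7, 5.28 and 7.33 FPKM in sieved hairs and 63.5, 30.3 and 30.4 FPKM in sorted cells. TTG1 and ZFP5 were not called, and the other 9, with GL2 and WER of non-hair cells, were not in the sieved table at a mean of 13.9 and 13.4 FPKM in sorted cells.

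Of 13 nutrient uptake genes 3 were higher (23.1%, beside 11.9% of all genes) and none lower, while without sieved library 1 or 2 or sorted library 1 there was 1 lower, and without sieved library 3 there were 2 higher. The ammonium transporter AMT1;3 had 176, 78.0 and 228 FPKM in sieved hairs, against 32.0, 12.9 and 13.9 FPKM in sorted cells. AMT1;2 had 1.14, 13.5 and 75.9 FPKM in sieved hairs and is listed at 0 in sorted cells, and the iron transporter IRT1 had 0, 12.2 and 34.9 FPKM in sieved hairs and at most 0.28 FPKM in sorted cells. The call of IRT1 rests on the rank that the zeros of sieved library 1 share, since that library's 0 lies below every sorted value. FRO2, the ferric reductase that works with IRT1, had 0, 12.6 and 7.39 FPKM in sieved hairs, against 2.79, 56.5 and 28.4 FPKM in sorted cells. The phosphate transporter PHT1;1 averaged 309.7 ± 199.7 FPKM in sieved hairs and 66.1 ± 33.9 FPKM in sorted cells and was not called, its percentiles differing by 11.3 points. Of 301 ribosomal protein genes 32 were higher (10.6%, beside 11.9% of all genes) and 5 lower (1.66%, beside 12.8% of all genes). Without sieved library 1 the higher ones became 78. The lower ones became 14 without sieved library 3, and 9 without sieved library 2 or sorted library 2. AT2G37600, of the L36e family, had 24.9, 315 and 102 FPKM in sieved hairs, against 4.02, 7.29 and 8.07 FPKM in sorted cells.

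Single libraries decided some values. LCR67, a defensin-like gene (AT1G75830), had 7795, 3.29 and 2.66 FPKM in sieved hairs and is listed at 0 in sorted cells. The call of LCR67 as higher thus joins 1 very high library and 2 low ones.

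The 31 genes high in sorted cells only lay between 98.99 and 6430 FPKM in the sorted libraries and at no more than 21.5 FPKM in any sieved library. MSRB9, a methionine sulfoxide reductase that repairs oxidized methionine, had 4.36, 10.8 and 0.035 FPKM in sieved hairs, against 1331, 757 and 750.4 FPKM in sorted cells. HSPRO2, the orthologue of a nematode resistance gene of sugar beet, had 4.81, 5.07 and 4.31 FPKM in sieved hairs, against 604, 865 and 619.7 FPKM in sorted cells. EXPA9, an expansin, had 6.18, 0.020 and 6.71 FPKM in sieved hairs, against 429.99, 904 and 642 FPKM in sorted cells. Each sorted library was far above each sieved library for these 3 genes, again by the rule that chose them.

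LSU3, a gene of the low sulfur response, had 1.34, 7.91 and 10.9 FPKM in sieved hairs, against 141, 205 and 170.5 FPKM in sorted cells. AT2G32190, of a cysteine-rich transmembrane family, averaged 3.12 FPKM in sieved hairs and 254 FPKM in sorted cells, and the lectin gene AT3G15356 averaged 4.42 and 149.7 FPKM. AT3G46280, a kinase-like gene, averaged 4.56 FPKM in sieved hairs and 146 FPKM in sorted cells. AT3G53650, a histone gene, averaged 3.97 FPKM in sieved hairs and 149 FPKM in sorted cells. The adjacent loci AT3G44870, a methyltransferase gene, and ACD1, a gene of chlorophyll breakdown, are listed with the same values, 0, 12.4 and 1.16 FPKM in sieved hairs and 525, 339 and 317 FPKM in sorted cells. In the WER::GFP wild type, where they were counted apart, AT3G44870 had 419.9, 484 and 345 normalized CPM and ACD1 5.17, 6.08 and 4.17. The chitinase family gene AT2G43610 had 8.84, 0 and 7.88 FPKM in sieved hairs, against 285, 6430 and 3310 FPKM in sorted cells.

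Of 13 wounding, touch and stress genes 5 were lower in sieved hairs (38.5%, beside 12.8% of all genes) and 1 higher (7.69%, beside 11.9%), with a median difference of -18.83 points. DREB2A, a drought and heat response factor, had 53.2, 48.2 and 32.7 FPKM in sieved hairs, against 1808, 1721 and 1457 FPKM in sorted cells. JAZ1, a repressor of jasmonate signalling that jasmonate induces, had 33.0, 69.6 and 83.8 FPKM in sieved hairs, against 848, 1011 and 814 FPKM in sorted cells. The touch gene TCH2, a calmodulin-like protein, had 3.99, 22.5 and 21.2 FPKM in sieved hairs, against 60.9, 132 and 106 FPKM in sorted cells. HSP101, a heat shock chaperone, had 5.50, 10.9 and 5.12 FPKM in sieved hairs, against 12.4, 135 and 58.5 FPKM in sorted cells. The sieved and sorted libraries did not overlap for any of these 4. TCH4 and the zinc finger gene ZAT10 were also lower, JAZ1 was not called because its rank moved by 19.8 points, and WRKY40 and JAZ10 were missing from the sieved table. Of 9 ER body genes 4 were high in both (44.4%, beside 3.29% of all genes) and 1 was lower (11.1%, beside 12.8% of all genes). The lower one was BGLU21, at 50.8, 40.5 and 22.6 FPKM in sieved hairs and 966, 898 and 1253 FPKM in sorted cells. Of 86 heat shock genes 6 were higher (6.98%, and 10 without sieved library 1) and 16 lower (18.6%), with HSFA1E, a heat stress factor, at 18.7, 0.13 and 2.42 FPKM in sieved hairs and 28.4, 35.2 and 29.5 FPKM in sorted cells. Of 40 histone genes 4 were higher and 5 lower (12.5%, and 8 without sieved library 2 or 3), near the shares of all genes. HIS1-3, a stress-inducible linker histone, was the widest of the higher ones, at 21.3, 158 and 129 FPKM in sieved hairs and at most 0.20 FPKM in sorted cells.

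**Figure D4:**
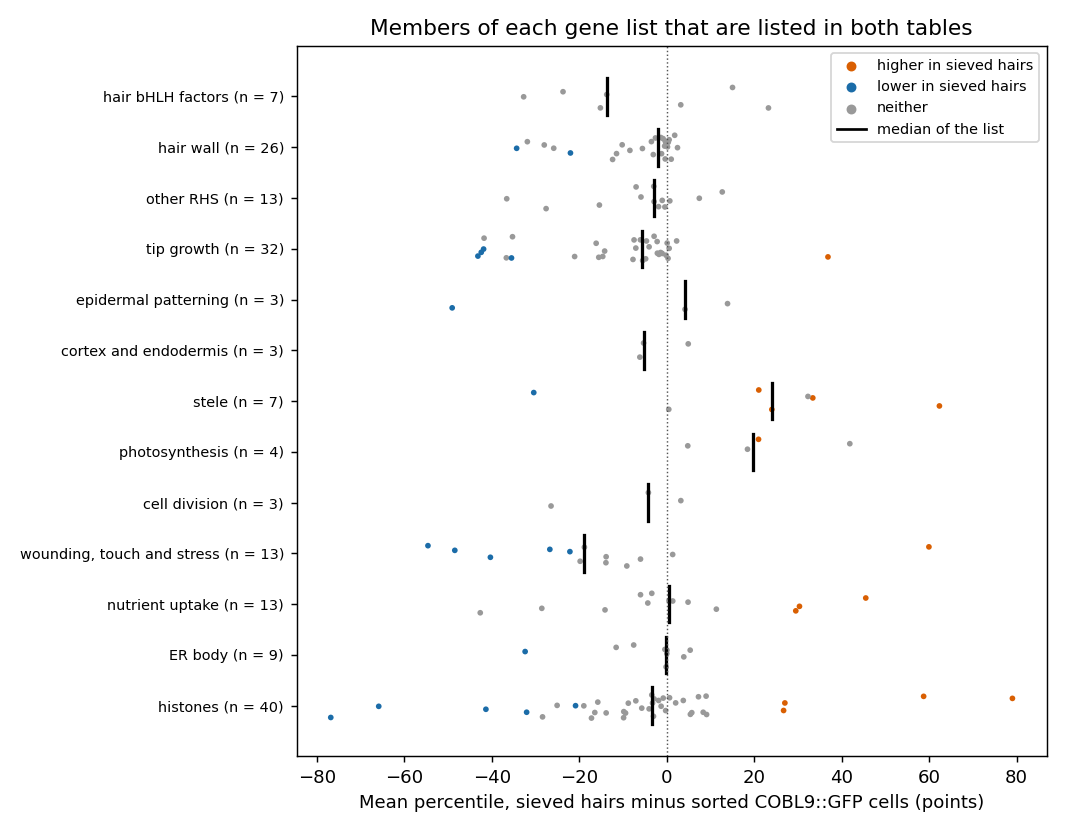
Difference in mean percentile, sieved hairs minus sorted cells, for each member of 13 gene lists in both tables, with calls in colour and the list's median as a bar. The 26 hair wall genes gather near 0 (median -1.98 points) and the 13 stress genes lie mostly to the left (median -18.83 points).

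Of the 5692 genes at a mean FPKM of 20 or more in sorted cells, 418 (7.34%) were missing from the sieved table, so their sieved mean was below 3 or not listed. The nearest inside that limit were AT3G45230, AT1G77170 and AT5G43030 at 20.004, 20.1 and 20.1 FPKM, and the nearest outside SK11, AT4G22190 and CML30 at 19.9, 19.9 and 19.8 FPKM. Protein-coding genes were 389 of the 418. Small RNA genes were 11 miRNA and 6 snoRNA precursors, that is 17 of the 33 such genes at 20 FPKM or more. At 20 FPKM or more in each sorted library were 205 of the 418.

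The 12 highest missing genes included 3 lectin genes and 3 LEA-like genes. AT1G52070, a mannose-binding lectin gene, had 792, 14470 and 8325 FPKM in sorted cells, and its neighbours AT1G52060 and AT1G52050 averaged 3525 and 1936 FPKM. AT5G54370, an LEA-like gene, had 1049, 12685 and 6960 FPKM in sorted cells, and the LEA-like genes AT3G19430 and AT5G60530 averaged 1585 and 1255 FPKM. AT1G50060, of the CAP family, had 271, 4230 and 2292 FPKM in sorted cells. These 3 are lowest in sorted library 1 by at least 4-fold. TAT3, a tyrosine aminotransferase that jasmonate induces, had 759.5, 3093 and 2202 FPKM in sorted cells. BGLU35, a β-glucosidase, had 116, 1641 and 987 FPKM, and the aspartyl protease gene AT5G19110 397, 1595 and 1314 FPKM in sorted cells. NLM1, an aquaporin, had 734, 1100.0 and 808 FPKM in sorted cells, and AT5G46890, of the lipid-transfer family, was highest in sorted library 1 at 2328, 691 and 903 FPKM.

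Sorted library 1 was at least 4-fold below both other sorted libraries for 151 of the 418 missing genes (36.1%), against 146 of the 5274 others at 20 FPKM or more (2.77%). It was the lowest sorted library for 11 of the 12 highest missing genes. The same held for 256 of all 418 missing genes (61.2%) and for 49.5% of the 14919 genes in both tables. Root cap markers had the same order of libraries. BRN1 and BRN2, NAC factors of root cap maturation, had 14.6, 215 and 112 FPKM and 13.4, 217 and 113 FPKM in sorted cells, and SMB, another such factor, 2.96, 45.5 and 24.7 FPKM. None of the 4 root cap markers was in the sieved table, and FEZ was at a mean of 0.76 FPKM in sorted cells. Their summed level was 31.6, 478 and 251 FPKM in sorted cells. The part of root cap cells in the missing genes was not tested. By name, and chosen after the values were seen, the missing genes also held the expansins EXPA1, EXPA8, EXPA17, EXPB1 and EXLA1, the neighbours XTH17, XTH18 and XTH19, and MSRB7 and MSRB8 beside MSRB9 of the genes high in sorted cells only.

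The rhd6 comparison gave a readout from other libraries, sorted from digested roots as the COBL9 cells were, and asks which of these genes are lower where most hairs are absent. In this table, values are normalized CPM, reads per 1e6 scaled by the authors, over 10562137 to 23110648 reads per library, with the 3 rhd6 and the 3 wild-type libraries numbered 1 to 3 in column order as names only. RHD6 itself had 1.25, 0.940 and 1.995 normalized CPM in rhd6, against 74.3, 75.5 and 85.4 in wild type (log2 fold change -5.07 ± 0.21 SE, limma adjusted p = 9.73e-05). COBL9 had 4.61, 25.4 and 7.18 in rhd6, against 95.5, 112 and 253 in wild type (log2 fold change -3.72 ± 0.60 SE, limma adjusted p = 0.0138), a call lost without wild-type library 2 or 3 or rhd6 library 3.

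Of the genes high in both isolations, 27 of 482 tested were lower in rhd6 (5.60%, exact Clopper-Pearson 95% interval 3.72 to 8.05, treating genes as independent), beside 3.26% of all 17575 tested genes, and none was higher by limma, beside 0.859%. At an unadjusted p below 0.05, 98 of the 482 were lower (20.3%, beside 10.36% of all genes) and 0 higher (beside 6.74%). edgeR and DESeq2 also called 0 higher, and without rhd6 library 1 limma called 1 higher. The 482 genes were picked for high rank, and their median level in the wild type was 238, beside 17.9 for all listed genes. No background of like level was drawn. The shares of the set and of all genes thus differ by level too, and the part of level was not tested. The log2 fold changes of the 27 ran from -4.85 to -1.13. Hair wall genes were 12 of them and tip growth genes 2, and 12 stood in no list. RHS19 had 3.26, 25.1 and 8.51 normalized CPM in rhd6, against 282, 214 and 414 in wild type. PRP3 had 15.2, 154 and 35.8 in rhd6, against 552, 595 and 1262 in wild type (log2 fold change -4.05 ± 0.76 SE, limma adjusted p = 0.0265). The 3 rhd6 libraries lay below all wild-type libraries for both genes, with library 2 the highest of the mutant. The count of 27 became 8, 9 and 7 without wild-type libraries 1, 2 and 3, 10 without rhd6 library 3, 19 by edgeR and 49 by DESeq2. In the same fits the share of the set was 1.66%, 1.87%, 1.46%, 2.07%, 3.94% and 10.2%. The share over all genes was 1.13%, 0.957%, 0.972%, 1.77%, 2.90% and 5.54%. In each of these fits but DESeq2, the 95% interval of the set held the share of all genes. Without rhd6 library 2 the count was 33 (6.85%, interval 4.76 to 9.48, beside 3.94% of all genes).

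For genes lower in rhd6, the other sets were near the share of all genes or too small to read. Their median levels also differed from that of all listed genes, and no background of like level was drawn for them. None of 12 tested genes high in sieved hairs only was lower in rhd6 in limma, and edgeR and DESeq2 called 0 of 13, while 2 of the 12 were lower at an unadjusted p below 0.05 (16.7%, beside 10.36% of all genes). Of 31 high in sorted cells only 1 was lower by limma, AT1G66500, a gene of pre-mRNA cleavage, and DESeq2 called 3. AT1G66500 had 5.77, 13.2 and 17.8 normalized CPM in rhd6, against 200.2, 195 and 138 in wild type (limma adjusted p = 0.00200). Its locus number is close to that of the mutated gene RHD6 (AT1G66470). An effect of the mutated locus on this neighbour thus cannot be told apart from the loss of hairs. Of 372 tested missing genes 15 were lower (4.03%), which became 6, 5 and 7 without wild-type libraries 1, 2 and 3, 10 without rhd6 library 1 or 3, and 25 by DESeq2. None was higher by limma with all libraries, but 8 were without rhd6 library 1 (2.15%, beside 0.702% of all genes). DESeq2 called 4 higher (1.08%, beside 2.13% of all genes). At an unadjusted p below 0.05, 41 of the 372 were lower (11.02%, beside 10.36% of all genes). CID5, which encodes a protein with a CTC-interacting domain, had 0.150, 0.502 and 0.0887 in rhd6, against 33.5, 29.97 and 73.2 in wild type (limma adjusted p = 0.000503). GSTU14, a glutathione transferase, had 1.003, 0.251 and 1.197 in rhd6, against 33.8, 33.9 and 46.7 in wild type (limma adjusted p = 0.000360). The expansin EXPA1 had 20.5, 9.59 and 45.8 in rhd6, against 132, 98.8 and 91.8 in wild type (limma adjusted p = 0.0451). In sorted COBL9 cells CID5 averaged 80.7 FPKM, GSTU14 115 FPKM and EXPA1 38.3 FPKM, and none of the 3 is in the sieved table.

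The tip growth gene RHD2 had 109, 119 and 193 normalized CPM in rhd6, against 323, 350.02 and 499 in wild type (log2 fold change -1.49 ± 0.29 SE, limma adjusted p = 0.0294), a call lost without any of 5 of the 6 libraries, all but rhd6 library 3. ROPGEF3 and EXO70C1 fell by 1.78 and 2.69 on the log2 scale in rhd6. Of the hair genes lower in sieved hairs, RHD2, ROPGEF3, EXO70C1 and CSLD2 were thus also lower in rhd6, while CSLD3 (-0.83, limma adjusted p = 0.191) and OXI1 (-0.03, limma adjusted p = 0.961) did not pass. By list, 21 of 27 hair wall genes (77.8%), 12 of 13 other RHS genes (92.3%), 14 of 32 tip growth genes (43.8%) and 5 of 9 bHLH factors (55.6%) were lower in rhd6. The share of all tested genes was 3.26%. The bHLH count includes RHD6, the mutated gene. These lists were chosen as hair genes, so their shares in a mutant with few hairs are a description only, and they were not recounted without 1 library.

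Genes high in sieved hairs only were also low in wild-type WER::GFP cells. The median level there was 3.29 normalized CPM for the 13 of 24 genes high in sieved hairs only that were listed, 242 for the 31 high in sorted cells only, 238 for those high in both and 60.2 for the listed missing genes, beside 17.9 for all listed genes. Listed there were 54.2% of the first set and 100% of the second. In those cells MSRB9 had 852, 865 and 949 normalized CPM, DREB2A averaged 1651 ± 299 and JAZ1 854 ± 91.9 (SD, n = 3 each). KIN1 had 4.88, 1.94 and 0.515. The WER::GFP and COBL9::GFP cells share the digestion, the sort and the kit, and these cannot be told apart from cell type in the ranks.

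**Figure D5:**
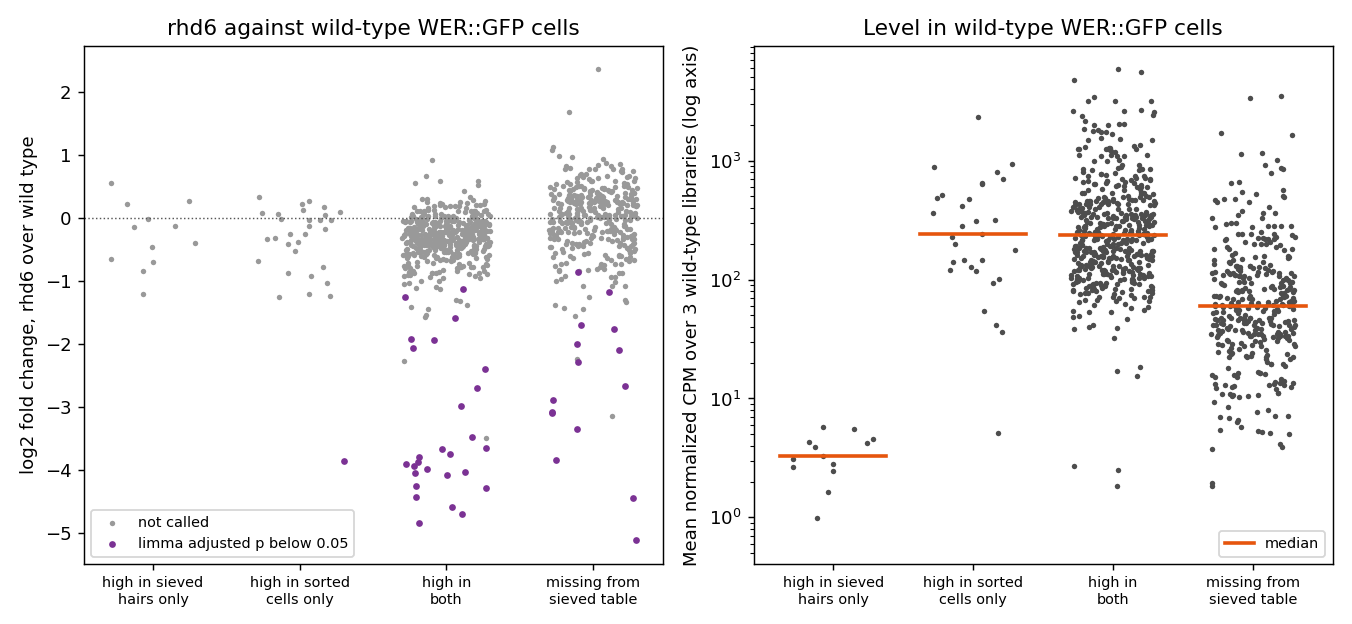
Left, log2 fold change of rhd6 over wild-type WER::GFP cells for the members of each set, with genes past limma adjusted p of 0.05 in purple. Right, mean normalized CPM of the WER::GFP wild type (log axis) with the median as a bar, which is 3.29 for genes high in sieved hairs only and 242 for genes high in sorted cells only.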

How the data were processed

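Sieved and sorted hair libraries were deposited by the authors as FPKM per gene, with a mark of expressed genes (0 or 1) in the sorted table. The sieved table holds only means of 3 or more, as tested on its values. The rhd6 table was deposited with a signal, normalized CPM, for each library. It also holds the authors' deposited log2 fold changes and log2 mean levels, a likelihood-ratio score, p-values and a mark, which were not used here. All its signal values were whole multiples of 1 read (100% within 0.01 of a read). The submitters' processing notes name Cufflinks, edgeR, HTSeq 0.6.1, TopHat2 (2.0.9 and 2.0.3) and CASAVA 1.8.2, without saying for which step. The annotation was that of TAIR10, per the labels. Strand use in counting is not stated, so antisense and overlapping genes are uncertain, and 275 of the 14919 shared genes have the same 6 values as another gene.

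Percentiles were computed within each library over the genes in both tables, ties at their mean rank. Named were the 10 nuclear genes with the widest gap in each one-sided set, the 12 high in both with the highest minimum percentile, the 12 highest missing genes, the 3 widest members of each list, COBL9, RHD6 and the highest organelle genes, and further members shown were picked with their values in view. The members and lists were chosen with earlier results of these data known. rhd6 was compared with wild type by limma 3.58.1 (R 4.3.3) on log2(value + 1) with a trend, two-sided. Kept were genes that reached 1 in at least 3 of the 6 libraries, and the threshold was a Benjamini-Hochberg adjusted p below 0.05. The deposited values are normalized CPM, for which limma was planned, and it was kept although whole reads could be recovered from them. On the recovered reads, DESeq2 1.42.0 and edgeR 4.0.16 served as alternatives. Column numbers tie libraries to a group but not to a replicate. Names came from the TAIR10.1 reference (14799 of 14919 genes matched), which is another release than the files use, so no coordinates or sequences are given. Python 3.11.15, pandas 2.3.3, scipy 1.17.1 and matplotlib 3.10.9 were used, and the steps were tested on simulated data. Tables of the other species were not analysed here.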

Additional observations from a re-analysis of the deposited data

How the results depend on the processing

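No paired analysis was possible because the columns of the sorted tables carry library numbers that are not tied to replicates. The number of genes high in sieved hairs only ran from 25 to 114 when 1 library was left out (24 with all), those high in sorted cells only from 34 to 53 (31 with all), and both were largest without sieved library 1, while genes high in sorted cells only were 51 without sorted library 1. With percentile 95 in place of 90 the sets held 11 genes high in sieved hairs only, 11 high in sorted cells only and 209 high in both, and with percentile 80 they held 63, 97 and 1118. Genes higher in sieved hairs were 887 by log2(FPKM + 1) less the library median, against 1773 by percentile. Missing genes were 694 at a mean of 10 FPKM or more, 188 at 50 or more and 205 at 20 or more in each sorted library, against 418. The share of genes high in both that were lower in rhd6 ran from 1.46% to 6.85% when 1 WER::GFP library was left out, and was 10.2% by DESeq2 and 8.21% for members at percentile 95, against 5.60%. The causes were not tested. Counts and shares have no sign, so how far they hold can be read only from the sizes given here. Of 9 single genes whose rhd6 fold change was recomputed, RSL2, COBL9 and RHD2 lost their call in 11 fits without 1 library, and other calls among the genes high in both were lost too, as their count shows. The median percentile difference of 7 of 17 lists changed sign without 1 library (hair wall, patterning, cortex and endodermis, cell division, nutrient uptake, ER body and ribosomal proteins, the last at -0.72 points without sieved library 2, against 2.76 with all). FPKM gives no depth, so the counting error behind low sieved values is unknown, and 1683 zeros in sieved library 1 limit what its low ranks can show. Rankings of genes above 0 or without shared values, recounts of lists without 1 library and rhd6 shares of members chosen otherwise were added after the data were seen.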
